A study of Mus musculus with 18 samples.

Results

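Eutopic endometrium, the lining of the uterus in its own place, was compared between ERBOE and PRCre mice, with 3 arrays of each genotype, 6 of the 18 arrays of the study. The arrays were chosen by their titles. ERBOE mice are described as overexpressing oestrogen receptor beta, and the control mice carried 1 copy of Cre at the progesterone receptor locus (PRCre/+). All of these mice had been given surgery at 8 weeks of age, in which a single 2 mm uterine fragment of a wild-type C57BL/6J mouse was implanted, and tissue was taken at estrus 4 weeks later. The other 12 arrays carried RNA of ectopic lesions, grown from ERBOE or PRCre fragments in wild-type hosts, and of uterus from 12-week-old mice of both genotypes without surgery. Each array held RNA pooled from 3 animals, so that 9 animals stood behind each group, and the word pool is used below for 1 array.

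The labels leave 2 doubts. The source field of the ERBOE eutopic samples calls these mice free of endometriosis, against their titles, and the account of the eutopic experiment has lesions harvested before it speaks of pooled eutopic endometria. Titles were followed. Because Cre is driven from the progesterone receptor locus, recombination is tied to cells in which that locus has been active, which in the uterus include epithelium, stroma and smooth muscle. The labels give no further detail of the transgene.

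Oestrogen receptors alpha and beta are hormone-activated transcription factors encoded by Esr1 and Esr2. In the uterus the alpha receptor carries most of the growth response to oestrogen: epithelial cells divide and secrete proteins such as lactotransferrin. Progesterone, through its receptor Pgr, opposes epithelial growth and turns on Indian hedgehog in the epithelium, which signals to the stroma beneath through Patched receptors and Gli factors. Wnt ligands and the homeobox gene Msx1 act in the same exchange between epithelium and stroma, and glands depend on Foxa2. Endometriosis, the growth of endometrium outside the uterus, is a disease in which the beta receptor has been studied.

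Levels are given as log2 processed signal minus the 75th percentile of the array, so that 0 is the level of that percentile, and differences are ERBOE minus PRCre on that log2 scale with the limma standard error. The 75th percentile signal of the 6 arrays lay between 584.9 and 740 intensity units, the share of probes above background ran from 58.58% to 72.82%, and 0 probes were saturated. Arrays correlated at 0.945 to 0.968 within a genotype and at 0.95 to 0.972 between genotypes, so the genotypes did not separate by overall profile. The eutopic arrays lay on slide 2 (PRCre pool 3 and ERBOE pool 1) and slide 3 (PRCre pools 1 and 2 and ERBOE pools 2 and 3). P-values measure the spread between pools of 3 animals.

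The tissue carried the genes of a uterus. Of 21 uterine identity genes 19 were tested and 19 were well above background on all 6 arrays, among them Emx2 at 3.81, 3.79 and 3.81 in PRCre and 3.6, 3.4 and 3.79 in ERBOE. Smooth muscle was present: the actin gene Acta2 read 8.38, 6.97 and 7.39 in PRCre and 7.19, 7.43 and 7.66 in ERBOE, and 29 of 31 contractile genes were above background throughout. Of the ovary markers, Amh, Fshr, Lhcgr and Cyp19a1 were among 8 of 24 that were above background on too few of the 18 arrays to be tested. Of the other 16 ovary and oviduct markers 10 were above background on all 6 arrays, and the summed signal of the list was 6.66 (log2) in PRCre pool 2 against 4.66 to 5.06 in the other 5 pools. Of these markers 13 had a negative difference (median -0.26) and 3, Zp1, Foxl2 and Nlrp5, read lower in every ERBOE pool than in any PRCre pool (18.8%, against 3.91% of all features tested). The levels came from bulk RNA, in which fewer cells of a type and less RNA per cell cannot be told apart.

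No gene passed the threshold for a difference between ERBOE and PRCre eutopic endometrium. Of 33178 features tested in limma, 0 had an adjusted p under 0.05 (0%), the smallest adjusted p was 0.749, and 975 had an unadjusted p under 0.05, of which 583 were higher and 392 lower in ERBOE. Without PRCre pool 1, 1 feature passed, the muscle transcription factor gene Myf6, at -4.25 (limma adjusted p = 0.0167); with all pools it read -6.75, -1.89 and -1.24 in the PRCre pools and -5.3, -5.91 and -6.24 in the ERBOE pools, and it was chosen after its value was seen. With no gene past the threshold over all pools, the differences below describe these 6 pools. A second count was used beside them: the groups are called apart where all 3 ERBOE pools lie above, or all 3 lie below, the 3 PRCre pools. This held for 1664 features above (5.02%) and 1296 below (3.91%), and an exact permutation test of 3 pools against 3 cannot give a 2-sided p below 0.1. Among the 17901 gene symbols tested, from which the lists below are drawn, the shares were 6.08% above and 3.78% below. Every count of genes apart in a list below is to be read beside these shares. The median difference over all features was -0.008.

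The genotypes did not separate in the gene of the overexpressed receptor. Esr2 was at 2.53, 2.15 and 2.63 in the PRCre pools and 2.76, 2.42 and 2.17 in the ERBOE pools, with the groups overlapping and a difference of 0.01 ± 0.2. Whether its probe reads the transgene is unknown from the labels and files used, so it can neither show nor exclude overexpression. Pgr, whose locus drives Cre, read 1.28, 0.4 and 1.99 in the PRCre pools and 1.65, 1.61 and 1.69 in the ERBOE pools and differed by 0.42 ± 0.59. The ERBOE pools were within 0.1 of each other for Pgr while the PRCre pools spread widely around them. Esr1 read 3.81, 3.1 and 3.95 in the PRCre pools and 3.46, 3.88 and 3.8 in the ERBOE pools, a difference of 0.1 ± 0.33. Among the other nuclear receptors the retinoic acid receptor gene Rarb stood apart, at -2.96, -2.87 and -2.64 in the PRCre pools and -1.02, -2.29 and -1.55 in the ERBOE pools. It was the only one of 30 tested with groups apart, and the median over that list was 0.02. Of 19 steroid receptor coregulators (median 0.01) 1 was apart each way. The coactivator gene Carm1 read higher at 1.7, 1.42 and 1.69 in PRCre against 1.71, 2.15 and 2.14 in ERBOE. Its difference was 0.4 ± 0.41, and ERBOE pool 1 (1.711) was nearly level with PRCre pool 1 (1.704). The corepressor gene Nrip1, itself a partner of oestrogen receptors, read lower at 1.33, 1.25 and 1.63 in PRCre against 0.94, 0.99 and 1.2 in ERBOE (-0.36 ± 0.23).

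Among single genes, the smallest p belonged to Khdc1c, of a family of KH-domain genes active in early embryos. Khdc1c read -4.08, -4.07 and -2.66 in the PRCre pools and -0.24, -0.96 and -0.34 in the ERBOE pools, a difference of 3.09 ± 0.53 (limma adjusted p = 0.749). All 3 ERBOE pools lay over 1.5 log2 units above the highest PRCre pool. Its neighbour in sequence Khdc1a showed the same order, at -2.81, -2.42 and -0.93 in the PRCre pools and 2.15, 1.09 and 1.71 in the ERBOE pools, and because these paralogues are nearly identical the 2 probes may read some of the same RNA. Next came Krtap17-1, a gene of keratin-associated proteins, at -2.91, -5.33 and -4.97 in the PRCre pools and -0.64, -1.7 and -0.44 in the ERBOE pools, where 1 of 3 PRCre pools was well above background. Rflna, which encodes the filamin-binding protein refilin A, was not well above background in any PRCre pool and read -2.52, -1.97 and -2.1 in ERBOE, at least 5.76-fold higher. Such a fold compares group means, with each dim pool set no lower than its array's lowest signal well above background. It holds for the main background correction only, here and below. Over the other settings the log2 difference of Rflna fell to 1.328.

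Several of the higher genes encode receptors or adhesion proteins at the cell surface. The ephrin receptor gene Epha8 read -4.26, -6.11 and -5.24 in the PRCre pools and -1.12, -1.53 and -1.38 in the ERBOE pools, a difference of 3.86 ± 0.83, with 1 PRCre pool above background. A second ephrin receptor gene, Epha3, was above background in the ERBOE pools only, at -3.9, -3.58 and -2.98 in ERBOE, at least 2.35-fold higher. Over the other settings its log2 difference fell to 0.486. The adhesion gene Ntm (neurotrimin) read -2.76, -3.14 and -5.03 in the PRCre pools and -0.26, -1.85 and -0.66 in the ERBOE pools. PRCre pool 3 was far below the other pools, and ERBOE pool 2 was the lowest of its group. The beta-1 adrenergic receptor gene Adrb1 read -4.65, -4.56 and -4.51 in the PRCre pools and -2.84, -2.9 and -3.28 in the ERBOE pools, a difference of 1.57 ± 0.32, with both groups narrow and 1 of 3 PRCre pools well above background. Slc27a3, a member of the fatty acid transport protein family, read 0.46, 0.98 and 0.6 in the PRCre pools and 2.98, 1.73 and 2.79 in the ERBOE pools, a difference of 1.82 ± 0.39. Lgi2, a secreted leucine-rich protein gene, read -2.23, -2.6 and -2.39 in the PRCre pools and 0.0, -1.38 and 0.37 in the ERBOE pools. ERBOE pool 2 was the lowest of its group for both, while still above every PRCre pool. Necab2 (2.42 ± 0.52), which encodes a neuronal calcium-binding protein, Zbtb8b (2.23 ± 0.47), a zinc-finger gene, and the kinase gene Map3k15 (1.43 ± 0.31), above background in 1 of 3 PRCre pools, made up the 12. Differences of genes this close to background depend on its correction: with normexp Map3k15 differed by 0.28, Adrb1 by 0.64, Zbtb8b by 0.82, Epha8 by 1.65, Ntm by 1.68 and Krtap17-1 by 1.98.

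The genes lower in ERBOE included matrix and adhesion genes. Htra3, a serine protease of the uterus and placenta, read 6.02, 5.15 and 5.3 in the PRCre pools and 4.05, 4.48 and 4.01 in the ERBOE pools, a difference of -1.31 ± 0.35. The matrix gene Fbln1 (fibulin 1) read 3.27, 2.66 and 2.93 in the PRCre pools and 1.81, 1.88 and 2.0 in the ERBOE pools, and the cell adhesion gene Ncam1 read 1.72, 1.93 and 1.25 in the PRCre pools and 0.27, 0.22 and -0.21 in the ERBOE pools. For each of these 3 genes the ERBOE pools were close together and below every PRCre pool. Mgat4a, an enzyme of N-glycan branching, read 2.22, 2.78 and 1.8 in the PRCre pools and 0.84, 0.89 and 0.66 in the ERBOE pools, and the poly(A) polymerase gene Tent5a read 3.25, 3.44 and 2.6 in the PRCre pools and 1.23, 1.69 and 1.36 in the ERBOE pools. Clvs2, which encodes the vesicle protein clavesin 2, had the smallest p of the lower genes (limma adjusted p = 0.749) at -1.28, -2.5 and -1.77 in the PRCre pools and -4.02, -3.46 and -3.9 in the ERBOE pools, a difference of -1.94 ± 0.38. Ecrg4, a secreted peptide precursor, ranged over more than 2 log2 units within each group, from -0.96 to 1.43 in PRCre and from -3.35 to -1.03 in ERBOE. The adhesion receptor gene Adgrf1 was well above background in 1 of 3 ERBOE pools and differed by -4.38 ± 1.17, or by -1.77 with normexp. Rgs9 (-1.07 ± 0.23), a brake on G-protein signals, the cation channel gene Trpc4 (-1.34 ± 0.34), the apoptosis repressor gene Nol3 (-0.89 ± 0.23) and Fam124a (-1.6 ± 0.44) completed the 12.

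**Figure D1:**
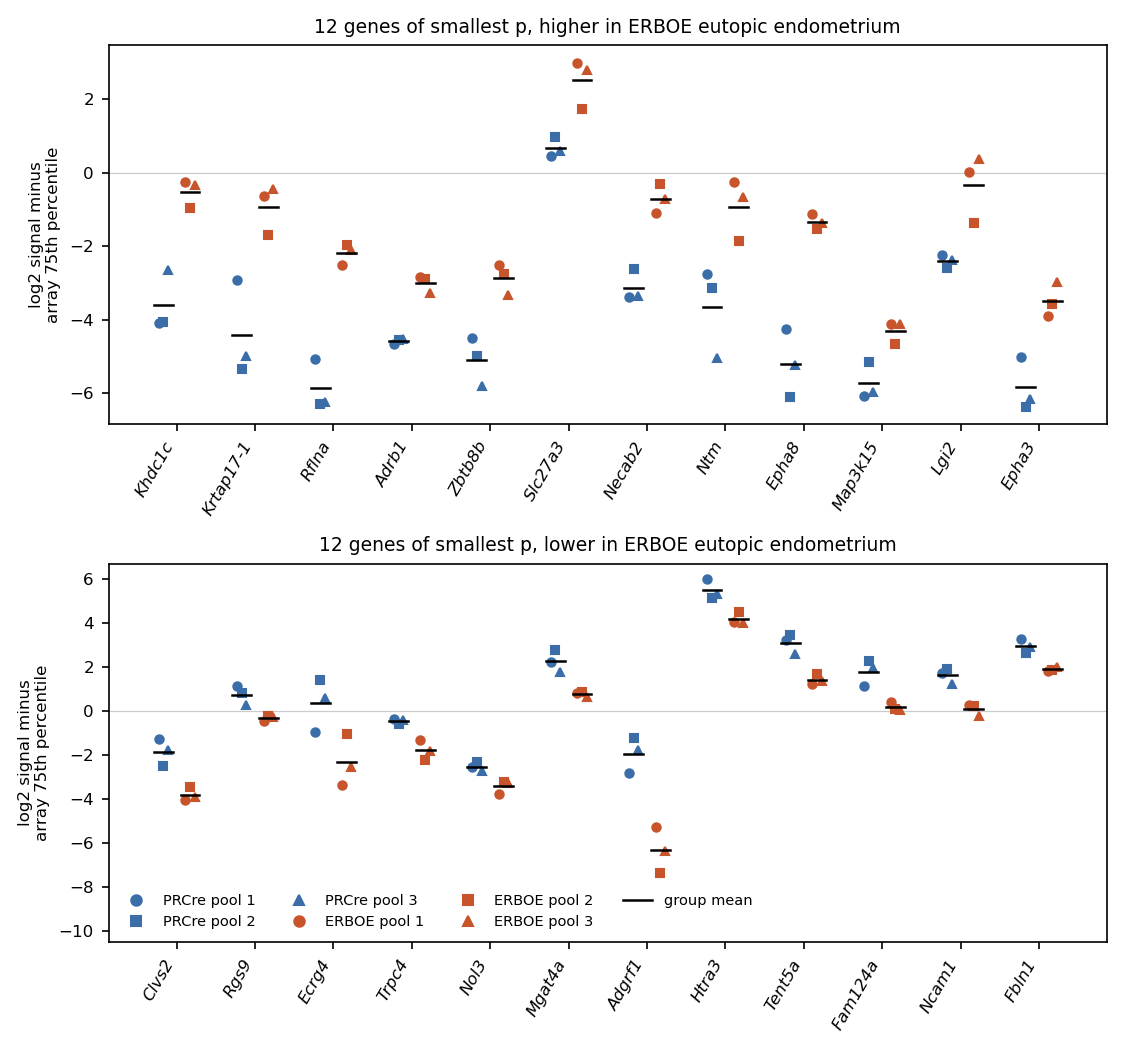
Levels (log2 signal minus the array's 75th percentile) of the 12 genes of smallest p in each direction whose groups were apart, with 1 point per pool of 3 animals and a bar at each group mean. All 3 ERBOE pools lie above the PRCre pools in the upper panel and below them in the lower panel, which is how the genes were chosen.

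Both slides that held eutopic arrays gave these genes the same direction. Within slide 2 the 12 higher genes differed by 1.67 to 4.77 and within slide 3 by 1.22 to 3.73, and the 12 lower genes by -3.92 to -0.74 and by -4.82 to -0.81. Since groups that do not overlap fix the sign within each slide, this describes the sizes only. The genotype differences in uterus and lesions did not enter the choice, though those arrays share the estimate of the spread. Of the 12 higher genes 11 were also higher in ERBOE uterus and 11 in ERBOE lesions, where 46.5% and 51.1% of all symbols were higher. Of the 12 lower genes 6 were lower in ERBOE uterus and 11 in ERBOE lesions, where 53.4% and 48.8% of symbols were lower.

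A few of the 24 had a difference of similar size in several tissues. Zbtb8b was higher by 2.15 in uterus and 3.2 in lesions, beside 2.23 in eutopic endometrium. Clvs2 was lower in all 3, by -2.61, -2.42 and -1.94 in uterus, lesions and eutopic endometrium. Ecrg4 was as low in uterus (-2.73) as in eutopic endometrium (-2.65) but differed by -0.79 in lesions. Epha8 went the other way in uterus, at -1.36, and Htra3, Ncam1 and Fbln1 differed there by 0.23, 0.34 and 0.58. In limma the difference between the eutopic and the uterus effect passed for 0 of 33178 features (0%), with 1693 at an unadjusted p under 0.05, and that between the eutopic and the lesion effect also for 0 (0%), with 540.

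**Figure D2:**
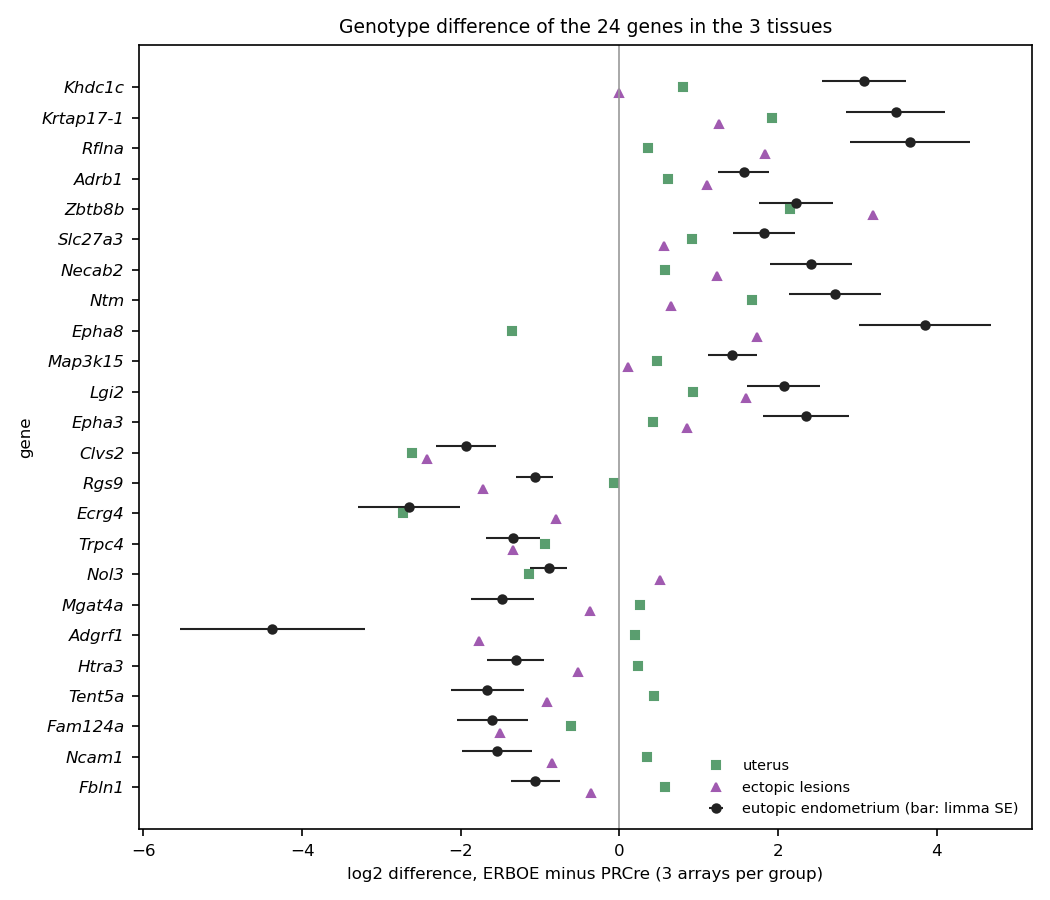
Difference in log2 signal, ERBOE minus PRCre, for the same 24 genes in eutopic endometrium (black, with the limma standard error), uterus (green) and ectopic lesions (purple), from 3 arrays per group. Zbtb8b and Clvs2 lie on one side of 0 with a similar size in all 3 tissues, and Epha8 lies on opposite sides in uterus and eutopic endometrium.

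By the unadjusted p of these differences between tissues, the genes that led the comparison with uterus were Plppr5, the kinase gene Cdk14, Cyp3a59, Nme4, Npl and Epha8. Cdk14, which acts in Wnt signalling, was lower in eutopic ERBOE endometrium, at -0.08, 0.45 and 0.45 in the PRCre pools and -0.29, -0.4 and -0.27 in the ERBOE pools, and differed by 0.96 in uterus, so that the effects differed by -1.56 ± 0.31. For Epha8 the effects differed by 5.22 ± 1.18, and by 2.36 with normexp background correction. Plppr5, a phospholipid phosphatase-related gene, was above background in the eutopic ERBOE pools only, at -4.3, -3.94 and -3.39 in ERBOE, at least 1.79-fold higher. Against lesions the leading gene was Me1, the malic enzyme that feeds fatty acid synthesis: it read 0.73, 1.17 and 1.44 in the PRCre pools and 0.6, 0.36 and 0.61 in the ERBOE pools, was higher by 1.47 in ERBOE lesions, and the effects differed by -2.06 ± 0.39. Nol3 (-1.4 ± 0.32) and the villin gene Vil1 (2.42 ± 0.55) followed. The other 3, Ereg, Gys2 and A530016L24Rik, were not well above background on any eutopic array. None of these passed, with adjusted p of at least 0.942 in limma.

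Genes of DNA replication read higher in ERBOE. Of 48 genes of the G1/S step and DNA replication, 46 had a positive difference with a median of 0.94, and 9 had groups apart, all higher (18.8% of the list against 5.02% of all features). Ccne1, the gene of cyclin E1 that starts S phase, read -2.63, -2.13 and -0.96 in the PRCre pools and -0.15, -0.71 and 1.89 in the ERBOE pools, a difference of 2.25 ± 0.74. The chromatin assembly gene Chaf1a read -1.99, -2.44 and -1.41 in the PRCre pools and -1.41, -1.25 and 1.09 in the ERBOE pools, and the DNA polymerase epsilon gene Pole2 read -3.77, -3.88 and -3.04 in the PRCre pools and -2.68, -3.0 and -1.06 in the ERBOE pools. In each of these genes ERBOE pool 3 was by far the highest, and ERBOE pools 1 and 2 were above the highest PRCre pool by less than 1 log2 unit. For Chaf1a, ERBOE pool 1 (-1.406) was nearly level with PRCre pool 3 (-1.409). The replication origin gene Orc1 (1.92 ± 0.92), the helicase gene Mcm4 (1.04 ± 0.5), the helicase component gene Cdc45 (0.56 ± 0.39), the transcription factor gene E2f1 (1.09 ± 0.53, ERBOE pool 1 above PRCre pool 3 by under 0.01) and the G1 kinase gene Cdk4 (0.56 ± 0.26) were also apart. Cdk4 read 4.23, 4.51 and 4.33 in PRCre and 4.75, 4.8 and 5.21 in ERBOE. The checkpoint gene Clspn was not well above background in any PRCre pool and was at least 1.7-fold higher in ERBOE, and Orc1 was above background in 1 of 3 PRCre pools.

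Genes of mitosis showed a positive median too, 0.77, with 51 of 53 above 0, but in none were the groups apart. Here PRCre pool 3 and ERBOE pool 3 were the high pools, with list medians of 0.97 and 2.21 after each gene was centred on its mean over the 6 arrays, and PRCre pool 1 and 2 and ERBOE pool 1 were low, at -1.18, -0.99 and -0.91. Mki67, the proliferation marker, read -0.12, -0.09 and 1.84 in the PRCre pools and -0.28, 1.39 and 3.56 in the ERBOE pools, and the topoisomerase gene Top2a read -1.48, -1.35 and 0.83 in the PRCre pools and -0.88, 0.34 and 2.67 in the ERBOE pools. Without ERBOE pool 3 the median was -0.07 for mitosis genes and 0.29 for replication genes. Within slide 2 the medians were -1.91 and -0.05, and within slide 3 they were 2.16 and 1.42. The 9 replication genes apart were picked because all ERBOE pools read above PRCre, so the order of pools 1 and 2 is no separate evidence. The size of both list medians rested on ERBOE pool 3.

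Brakes on the cell cycle leaned the other way for some members. Of 26 cell-cycle inhibitors and p53 targets, 4 were apart and lower (15.4%, against 3.91% of all features) and 1 was apart and higher (3.85%, against 5.02%). In all 16 were below 0 and 10 above. The list median of -0.08 became 0.018 without ERBOE pool 3 and 0.024 without PRCre pool 2. Cdkn1b, the gene of the CDK inhibitor p27, read 2.17, 2.44 and 2.57 in the PRCre pools and 1.92, 1.77 and 1.64 in the ERBOE pools. The antiproliferative genes Btg1 and Btg2 read 3.86, 4.33 and 4.06 in the PRCre pools and 3.59, 3.58 and 3.15 in the ERBOE pools, and 1.27, 2.28 and 1.56 in the PRCre pools and 1.11, 1.14 and 0.41 in the ERBOE pools, in that order. The ERBOE pools were the lower ones in each, with ERBOE pool 3 lowest. Trp53inp1 (-1.32 ± 0.67), a p53-induced gene, was lower as well, whereas Trp53 itself was slightly higher at -0.79, -0.94 and -0.84 in PRCre against -0.37, -0.31 and -0.2 in ERBOE.

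Promoters of these genes, from 250 bases before to 50 after the start, were taken from RefSeq (GRCm38.p6). An E2F motif was searched on both strands as TTTGGCGC, TTTGCCGC, TTTCGCGC or TTTCCCGC, and the 4 forms share their ends so that overlapping matches count once per start. It was found in 19 of 41 replication genes with a promoter in the table (46.3%), in 2 of 45 mitosis genes (4.44%), and in 3.86% of the 14104 tested symbols with a promoter. Of the 9 replication genes with groups apart, 8 had a promoter in the table and 3 held the motif (37.5%), a lower share than in the whole list. A link between the motif and the genotype difference was not tested. These 3 are shown with the match in capitals, 5′ to 3′ in the direction of the gene.
Orc1, GRCm38.p6 chr4:108579204-108579503, plus strand: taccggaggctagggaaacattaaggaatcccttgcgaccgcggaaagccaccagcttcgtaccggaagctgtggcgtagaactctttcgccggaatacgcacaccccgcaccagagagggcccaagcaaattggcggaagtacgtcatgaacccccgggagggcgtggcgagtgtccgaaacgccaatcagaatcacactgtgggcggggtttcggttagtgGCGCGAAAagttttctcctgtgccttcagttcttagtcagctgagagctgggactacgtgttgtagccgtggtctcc
Pole2, GRCm38.p6 chr12:69228141-69228440, minus strand: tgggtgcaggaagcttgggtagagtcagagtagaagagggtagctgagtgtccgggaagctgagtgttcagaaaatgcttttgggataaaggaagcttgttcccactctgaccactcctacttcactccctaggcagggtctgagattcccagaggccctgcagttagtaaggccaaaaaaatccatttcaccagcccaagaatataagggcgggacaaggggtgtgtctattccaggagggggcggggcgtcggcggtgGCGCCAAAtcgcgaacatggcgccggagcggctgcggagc
Clspn, GRCm38.p6 chr4:126556730-126557029, plus strand: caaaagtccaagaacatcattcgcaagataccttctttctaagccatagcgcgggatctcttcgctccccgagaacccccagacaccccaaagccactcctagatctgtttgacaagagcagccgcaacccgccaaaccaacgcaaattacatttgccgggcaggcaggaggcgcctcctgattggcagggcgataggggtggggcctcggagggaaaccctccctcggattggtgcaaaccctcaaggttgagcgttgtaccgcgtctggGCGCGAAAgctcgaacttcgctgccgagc
Counted from the start site, the match began at -27 in Orc1, at 10 in Pole2 and at 21 in Clspn. Ccne1, Cdk4, Cdc45, Chaf1a and E2f1 held no match to these letters in the 1 window read for each. Whether that window covers the main start site was not checked, and other start sites were not searched.

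Wnt genes read higher in ERBOE by their median whichever pool was left out. Of 45 Wnt ligands, receptors and inhibitors 37 had a positive difference, the median was 0.43, and 8 were apart and higher (17.8%) while none was apart and lower. The centred list medians were -0.05, -0.33 and -0.29 in PRCre and 0.27, 0.19 and 0.07 in ERBOE, leaving out any 1 pool gave medians of 0.25 to 0.49, normexp gave 0.2, and the medians within slides 2 and 3 were 0.61 and 0.33. The ligand gene Wnt5b read 1.14, 1.26 and 1.29 in the PRCre pools and 2.49, 1.95 and 3.2 in the ERBOE pools, a difference of 1.31 ± 0.41, with the PRCre pools within 0.2 of each other and ERBOE pool 3 highest. Wnt2, another ligand gene, read -2.91, -2.83 and -4.71 in the PRCre pools and -0.72, -1.92 and -1.61 in the ERBOE pools, with PRCre pool 3 not well above background. The Wnt5a receptor gene Ror1 read -1.99, -2.22 and -1.63 in the PRCre pools and -0.52, -1.43 and -1.26 in the ERBOE pools. The Frizzled receptor genes Fzd3 (0.46 ± 0.22) and Fzd6 (0.69 ± 0.4) were apart by less, as were the secreted inhibitor genes Sfrp4 (0.43 ± 0.39), Sfrp5 (0.48 ± 0.36) and Dkk2 (0.54 ± 0.53), so ligands, receptors and inhibitors were all among the 8. In uterus and lesions the list medians of the genotype difference were 0.19 and 0.32.

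Some hedgehog genes stood higher in ERBOE, with a wide spread among the controls. Of 27 Notch and hedgehog genes 24 had a positive difference (median 0.38, 0.13 without PRCre pool 2, 0.21 without ERBOE pool 2 and 0.2 with normexp) and 4 were apart and higher (14.8%), among them Gli1, Gli2 and Hhip. The effector gene Gli1 read 2.92, -0.41 and 0.89 in the PRCre pools and 2.96, 4.57 and 3.71 in the ERBOE pools, a difference of 2.61 ± 1.24. PRCre pool 1 came within 0.1 of ERBOE pool 1, while PRCre pool 2 was over 3 log2 units lower. The transcription factor gene Gli2 read -2.72, -2.92 and -2.82 in the PRCre pools and -2.51, -1.83 and -1.97 in the ERBOE pools. Hhip, a decoy receptor that hedgehog signalling itself induces, stayed below the background limit in all PRCre pools, at -4.48, -5.35 and -4.6. It read -3.87, -1.5 and -1.7 in ERBOE, at least 5.05-fold higher by group means. ERBOE pool 1 lay nearest the PRCre pools, and over the other settings the log2 difference fell to 1.083. The ligand gene Ihh read 1.21, -2.6 and -4.75 in the PRCre pools and 1.22, 3.04 and 0.95 in the ERBOE pools, with groups that overlapped by 1 pool, and Ptch1 read -1.91, -3.23 and -3.54 in the PRCre pools and -2.27, -0.6 and -1.85 in the ERBOE pools. In uterus Gli1 and Hhip differed by -1.47 and -2.13, the opposite sign, and in lesions by 1.14 and 0.54.

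Of 24 progesterone-induced genes 15 were above and 9 below 0, and 4 were apart and higher (16.7%), with none lower, among them the hedgehog genes Gli1 and Hhip. Gata2, a transcription factor gene upstream of Pgr, was also apart and read 1.53, 1.65 and 1.68 in the PRCre pools and 1.88, 1.91 and 2.21 in the ERBOE pools. Cebpd (-1.08 ± 0.42), a transcription factor gene, and Calca (-1.39 ± 0.61), the calcitonin gene, which was above background in 1 of 3 ERBOE pools, were among the smallest p of the list and lower, with groups that overlapped. The list median of 0.32 became -0.21 without ERBOE pool 2 and -0.1 without PRCre pool 2. The pools with high progesterone-induced genes were 1 of each genotype, PRCre pool 1 at 0.64 and ERBOE pool 2 at 0.74 (centred list medians).

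Genes that mark glands and uterine identity stood apart in both directions. Of 19 uterine identity genes 2 were apart and higher, Msx1 and Foxa2, and 2 apart and lower, Emx2 (-0.21 ± 0.25) and Foxl2 (-0.13 ± 0.2), each 10.5% of the list. For Emx2 the nearest pools of the 2 genotypes were almost level. The list median was 0.42, and 0.17 without PRCre pool 2 or 0.18 without ERBOE pool 2. The homeobox gene Msx1 read 2.91, 2.33 and 2.73 in the PRCre pools and 4.24, 4.41 and 3.95 in the ERBOE pools, a difference of 1.54 ± 0.58, with every ERBOE pool over 1 log2 unit above every PRCre pool. It was flat in uterus (-0.01) and differed by 0.59 in lesions. Among 21 gland genes 4 were apart and higher (19%): the chemokine-like gland gene Cxcl15 at -3.2, -7.54 and -6.45 in the PRCre pools and -2.22, -3.15 and -1.88 in the ERBOE pools, the transcription factor gene Sox17 at 1.09, 0.72 and 1.11 in the PRCre pools and 1.58, 2.05 and 1.82 in the ERBOE pools, the gland regulator Foxa2 at 0.0, -0.55 and -1.87 in the PRCre pools and 0.44, 0.73 and 0.4 in the ERBOE pools, and the calcium-binding protein gene Calb1 at 0.26, 1.57 and 0.37 in the PRCre pools and 2.6, 3.84 and 1.67 in the ERBOE pools. PRCre pools 2 and 3 were not well above background for Cxcl15. Of the gland genes 2 more had a p under 0.05 in limma with groups that overlapped. Wif1, a Wnt inhibitor gene, was at 0.28 and 0.58 in ERBOE pools 1 and 3 and not well above background in the other 4 pools, and Wnt7a, an epithelial Wnt ligand gene, read -2.08, 1.07 and 0.25 in the PRCre pools and 2.08, 0.96 and 2.82 in the ERBOE pools. Foxa1 was apart and lower, and well above background in PRCre pool 2 alone. The median over the gland list was 0.13 and the summed signal of its genes overlapped, at 6.91 to 8.19 in PRCre and 6.97 to 8.11 in ERBOE (log2). For the uterine identity list the summed signal did not overlap, at 6.16 to 6.63 and 6.86 to 6.96. This was not particular to that list. Summed signals were also apart and higher in ERBOE for Wnt, circadian clock and Khdc1 family genes. They were apart and lower for cell-cycle inhibitors, for decidual and stromal differentiation genes, and for EGF receptor ligands and feedback genes. The sums were not tested.

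**Figure D3:**
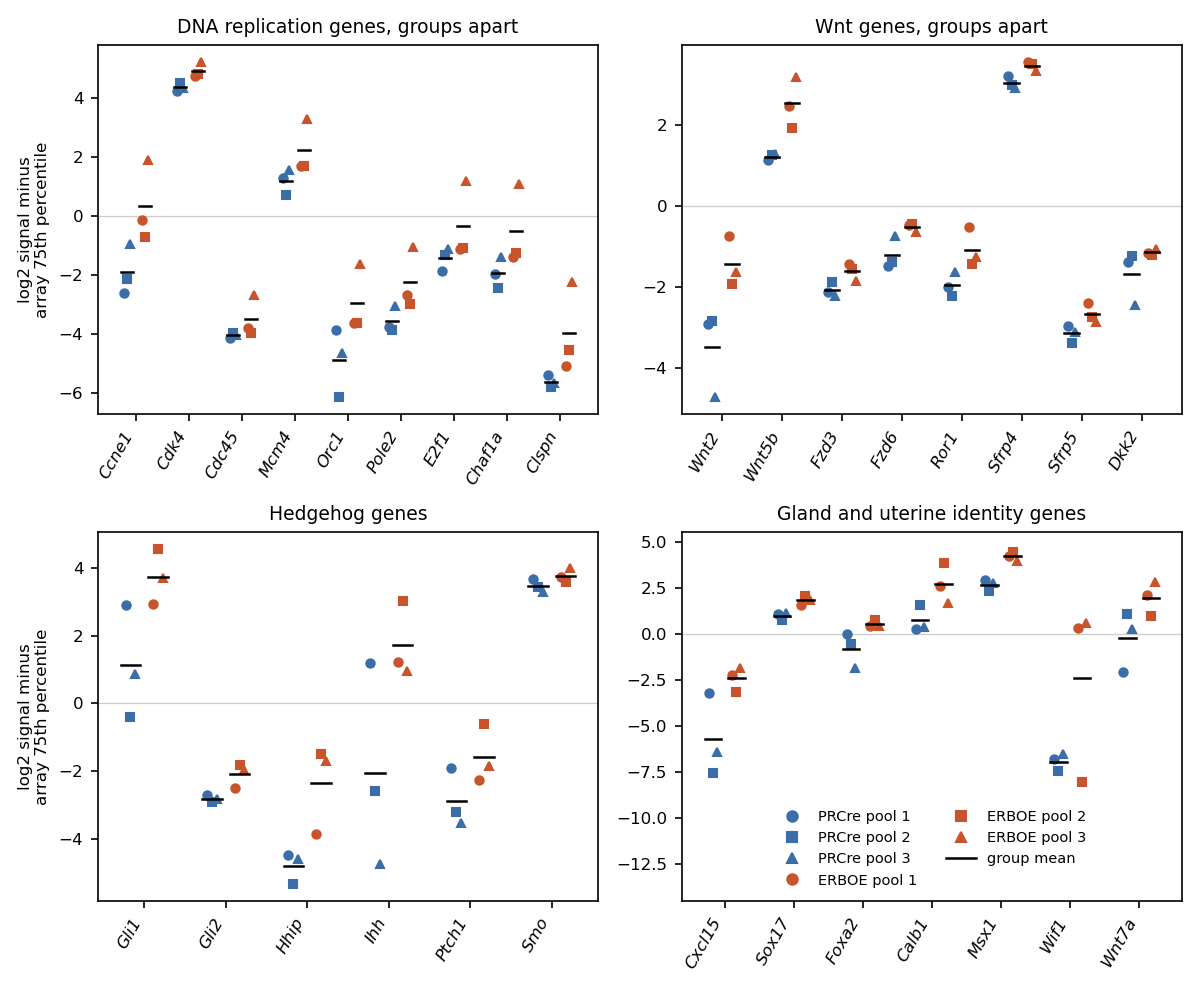
Levels (log2 signal minus the array's 75th percentile) in each pool for replication genes and Wnt genes with groups apart, for hedgehog genes, and for gland and uterine identity genes, with bars at group means. ERBOE pool 3 leads the replication genes, PRCre pool 1 lies with the ERBOE pools for Gli1 and Ihh, and the 2 groups of Msx1 are separated by a clear gap.

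Oestrogen-induced genes and luminal epithelial markers read lower in ERBOE by their medians, with few groups apart. Of 31 oestrogen-induced genes 26 were below 0 (median -0.41) and 0 were apart, and of 31 luminal markers 28 were below 0 (median -0.36) with 2 apart and lower, among them the protease inhibitor gene Spint2 at 2.22, 3.08 and 2.57 in the PRCre pools and 2.2, 1.99 and 2.02 in the ERBOE pools. Both medians rested on PRCre pools 2 and 3. Without PRCre pool 2 they were -0.11 and 0.06, and without PRCre pool 1 they were -0.9 and -0.85. Complement C3, an oestrogen-induced secretory gene, had the smallest p of the list, at 7.65, 9.53 and 8.5 in the PRCre pools and 7.97, 6.5 and 7.0 in the ERBOE pools, a difference of -1.4 ± 0.61. In uterus the list medians had the opposite sign, 0.98 and 1.06, and the medians of the eutopic minus the uterus effect were -1.11 and -1.31, with 6 and 8 members at an unadjusted p under 0.05 in limma and 0 past the adjusted threshold. The epithelial keratin gene Krt18 read 6.09, 7.18 and 6.75 in the PRCre pools and 6.31, 6.37 and 6.29 in the ERBOE pools and did not separate.

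The pools differed among themselves in some of these genes by more than the genotypes did. The genes of this paragraph were chosen after their values were seen. Ltf, the classic oestrogen-induced secretory gene, read 1.36, 8.08 and 6.45 in the PRCre pools and 7.8, 3.85 and 6.59 in the ERBOE pools. PRCre pool 1 and ERBOE pool 2 were the low ones, and the group difference was 0.78 ± 1.64. The same pair was low for the secretory gene Lcn2, at 1.95, 8.99 and 8.2 in the PRCre pools and 7.58, 1.74 and 6.34 in the ERBOE pools, and for the mucin gene Muc1, at -1.6, 3.83 and 3.53 in the PRCre pools and 2.64, -0.28 and 2.17 in the ERBOE pools. The same pair was high for the implantation serine protease gene Prss29, at 6.19, -3.34 and 3.53 in the PRCre pools and -1.61, 5.79 and -2.59 in the ERBOE pools, where PRCre pool 3 was also high. Fst, the activin-binding follistatin gene, read 0.15, -4.98 and -3.48 in the PRCre pools and -3.69, 0.27 and -3.66 in the ERBOE pools, with PRCre pool 1 and ERBOE pool 2 again above the other 4. The deviations of these 2 pools from their group means correlated at 0.39 over all features, the highest of the 9 pairs between genotypes. All groups are labelled as taken at estrus, and whether the pools differed in cycle stage was not tested.

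**Figure D4:**
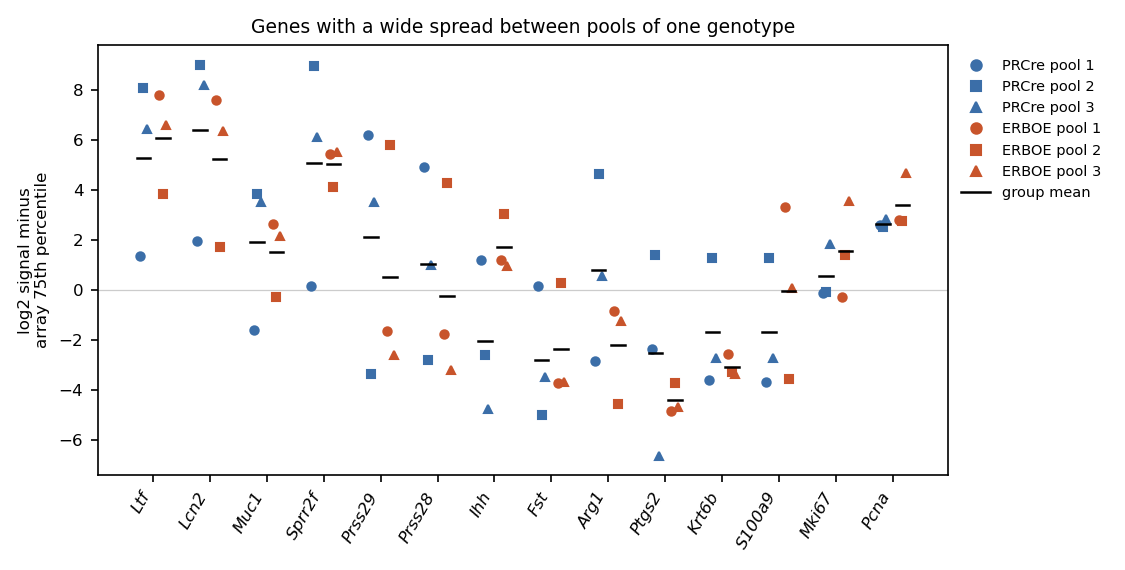
Levels (log2 signal minus the array's 75th percentile) in each pool for genes with a wide spread inside a genotype, with bars at group means, chosen after their values were seen. PRCre pool 1 and ERBOE pool 2 are low for Ltf, Lcn2 and Muc1 and high for Prss29 and Fst, PRCre pool 2 is high for Arg1, Ptgs2 and Krt6b, ERBOE pool 1 is high for S100a9, and ERBOE pool 3 is high for Mki67 and Pcna.

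Interferon-induced genes leaned lower in ERBOE, with 1 gene apart. Of 48 genes 45 were below 0 (median -0.44) and 1, Ifit3, was apart and lower, at 0.8, 2.63 and 2.2 in the PRCre pools and 0.74, 0.59 and -0.38 in the ERBOE pools, a difference of -1.56 ± 0.92. The antiviral gene Rsad2 read -0.96, 0.7 and 0.05 in the PRCre pools and -1.01, -0.4 and -2.05 in the ERBOE pools, with ERBOE pool 3 the lowest and PRCre pool 1 level with ERBOE pool 1. Sp100 (-0.69 ± 0.46) and Usp18 (-0.86 ± 0.65) followed. By centred list medians PRCre pools 2 and 3 were high, at 0.9 and 0.67, and PRCre pool 1 and ERBOE pool 3 were low, at -0.84 and -0.74. Without PRCre pool 2 the list median was -0.13, without PRCre pool 3 it was -0.15, and without PRCre pool 1 it was -1.09. MHC class I genes, which interferon also induces, had a median of -0.21 and 0 of 15 apart. Among interferon signalling components Socs1, a feedback inhibitor, was the only 1 of 24 apart, and higher, at -0.49, -0.59 and -0.26 in the PRCre pools and -0.18, 0.68 and 0.52 in the ERBOE pools.

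An interferon response element, searched on both strands as GAAANNGAAA, was found in the RefSeq promoters of 19 of 36 interferon-induced genes in the table (52.8%) and of 3.87% of tested symbols. Of the 3 genes of smallest p in the list Rsad2 and Ifit3 held it and Sp100 did not, and the first 2 are shown with the matches in capitals.
Rsad2, GRCm38.p6 chr12:26456403-26456702, minus strand: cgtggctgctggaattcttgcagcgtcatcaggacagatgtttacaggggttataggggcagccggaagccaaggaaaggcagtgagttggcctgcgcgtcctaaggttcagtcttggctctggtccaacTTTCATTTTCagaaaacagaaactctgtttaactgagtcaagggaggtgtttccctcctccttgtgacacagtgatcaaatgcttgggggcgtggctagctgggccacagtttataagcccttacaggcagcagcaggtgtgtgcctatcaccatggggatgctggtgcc
Ifit3, GRCm38.p6 chr19:34583279-34583578, plus strand: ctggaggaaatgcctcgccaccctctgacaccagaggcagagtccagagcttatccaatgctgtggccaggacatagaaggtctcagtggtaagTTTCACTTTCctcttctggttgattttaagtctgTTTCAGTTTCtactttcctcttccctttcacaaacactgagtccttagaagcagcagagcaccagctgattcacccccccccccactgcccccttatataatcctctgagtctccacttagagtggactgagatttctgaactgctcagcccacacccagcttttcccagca
Ifit3 held 2 matches, and Rsad2 held 1 that began at -120 from the start site. A full oestrogen response element, GGTCANNNTGACC, was found in 0 of 28 promoters of the oestrogen-induced genes, 0 of 19 promoters of the 24 named genes, and 0.0213% of tested symbols.

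TNF and NF-kB response genes read lower in ERBOE by their median, which rested on 1 control pool. Of 33 genes 28 were below 0 (median -0.51), but PRCre pool 2 alone was high, with a centred list median of 1.78 where the other 5 pools lay between -0.38 and -0.08, and without it the median was 0.05. Nfkbia, the inhibitor that NF-kB induces, read 3.79, 5.34 and 4.03 in the PRCre pools and 3.58, 4.11 and 3.34 in the ERBOE pools, and Ptgs2, the inducible cyclooxygenase gene, read -2.34, 1.41 and -6.61 in the PRCre pools and -4.84, -3.71 and -4.66 in the ERBOE pools. Of them 1 was apart and higher, the mitochondrial superoxide dismutase gene Sod2 (0.49 ± 0.32), and 3 were apart and lower, of which Cxcl3 and Il6 were above background in PRCre pool 2 only and Selp, the endothelial selectin gene, read -1.56, -1.97 and -2.29 in the PRCre pools and -2.54, -2.54 and -2.85 in the ERBOE pools. PRCre pool 2 was also high for the arginase gene Arg1, at 4.63 beside -4.56 to 0.57 elsewhere, and for the keratin gene Krt6b, at 1.27 beside -3.58 to -2.56.

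Within the interleukin-1 group 2 genes were apart and higher in ERBOE, 8.7% of 23 tested against 5.02% of all features. The receptor gene Il1r1 read -0.28, -0.71 and -1.11 in the PRCre pools and 0.43, -0.07 and 0.1 in the ERBOE pools, a difference of 0.85 ± 0.25, and the alarmin gene Il33 read -2.06, -2.8 and -2.27 in the PRCre pools and 0.11, -1.93 and -0.45 in the ERBOE pools, a difference of 1.61 ± 0.5. Il33 was close to its PRCre range in ERBOE pool 2 and over 1.5 log2 units above it in the other 2 pools. Both genes were higher in ERBOE uterus (0.6 and 1.55) and lesions (0.87 and 1.26) as well. The cytokine gene Il1b was well above background in 1 PRCre pool and 3 ERBOE pools and read -6.12, -0.82 and -6.39 in the PRCre pools and -1.42, -5.07 and -4.0 in the ERBOE pools. Caspase 1 (Casp1) read 0.83, 2.09 and 2.87 in the PRCre pools and 2.15, 1.98 and 1.66 in the ERBOE pools and Nlrp3 read -3.59, -2.98 and -2.99 in the PRCre pools and -2.97, -3.7 and -3.84 in the ERBOE pools.

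Genes of the TNF receptor complex and of the apoptosome, where the beta receptor has been studied in endometriosis, showed small differences. Of 32 genes 3 were apart and lower (9.38%, against 3.91% of all features) and 1 apart and higher (3.12%, against 5.02%), with a median of -0.04. The stress kinase gene Map3k5 (ASK1) read -1.44, -1.11 and -1.54 in the PRCre pools and -2.35, -1.94 and -2.33 in the ERBOE pools, a difference of -0.84 ± 0.34, and the death receptor gene Fas read -0.46, -0.28 and -0.92 in the PRCre pools and -1.08, -1.4 and -1.62 in the ERBOE pools. The caspase 8 inhibitor gene Cflar was lower by less, -0.27 ± 0.2, and cytochrome c (Cycs) was higher at 3.36, 3.14 and 3.3 in the PRCre pools and 3.55, 3.68 and 4.48 in the ERBOE pools. Casp8 (-0.22 ± 0.38), Casp9 (0.06 ± 0.2) and Tnfrsf1a (-0.12 ± 0.32) overlapped between the groups.

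Among the lists of blood cell markers, only the eosinophil and mast cell list and the T cell list held genes with groups apart. Of 28 macrophage and dendritic cell markers, 16 neutrophil markers, 25 NK and cytotoxic markers and 17 B and plasma cell markers, 0 were apart, with medians of 0.08, 0.02, -0.08 and -0.19. Their summed signals overlapped, at 5.83 to 7.22 and 5.98 to 6.95 for macrophage markers and at 6.54 to 9.79 and 6.68 to 9.07 for neutrophil markers. S100a9, a neutrophil protein, read -3.66, 1.28 and -2.7 in the PRCre pools and 3.3, -3.54 and 0.09 in the ERBOE pools, high in ERBOE pool 1 and PRCre pool 2. Of 14 eosinophil and mast cell markers 7 were above and 7 below 0 (median 0.04). Among them 3 were apart and lower (21.4%, against 3.91% of all features), and 1, Gata2, apart and higher (7.14%, against 5.02%). The carboxypeptidase gene Cpa3 read 0.02, -1.78 and -1.27 in the PRCre pools and -2.09, -2.41 and -2.38 in the ERBOE pools, the IgE receptor gene Fcer1a read -2.71, -3.27 and -3.22 in the PRCre pools and -3.29, -3.99 and -4.35 in the ERBOE pools, and the eosinophil receptor gene Il5ra read -2.38, -1.78 and -0.97 in the PRCre pools and -2.48, -3.21 and -3.14 in the ERBOE pools. These were the 3 lower ones, while the eosinophil ribonuclease genes Ear1 (0.73 ± 0.57) and Ear2 (0.74 ± 0.45) read higher and overlapped. The mast cell protease genes Mcpt4 (-1.28 ± 0.64) and Cma1 (-1.02 ± 0.61) had PRCre pool 1 high and overlapped. In ERBOE uterus these mast cell genes differed by -1.92, -1.28, -1.88 and -1.75 for Cpa3, Fcer1a, Mcpt4 and Cma1, and in lesions by 0.15, 0.11, -0.12 and 0.36. The T cell genes Cd3e (-0.4 ± 0.56) and Cd8b1 (-0.52 ± 0.6) were also apart and lower, 10% of 20 tested against 3.91% of all features. The T cell list median was 0.02.

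**Figure D5:**
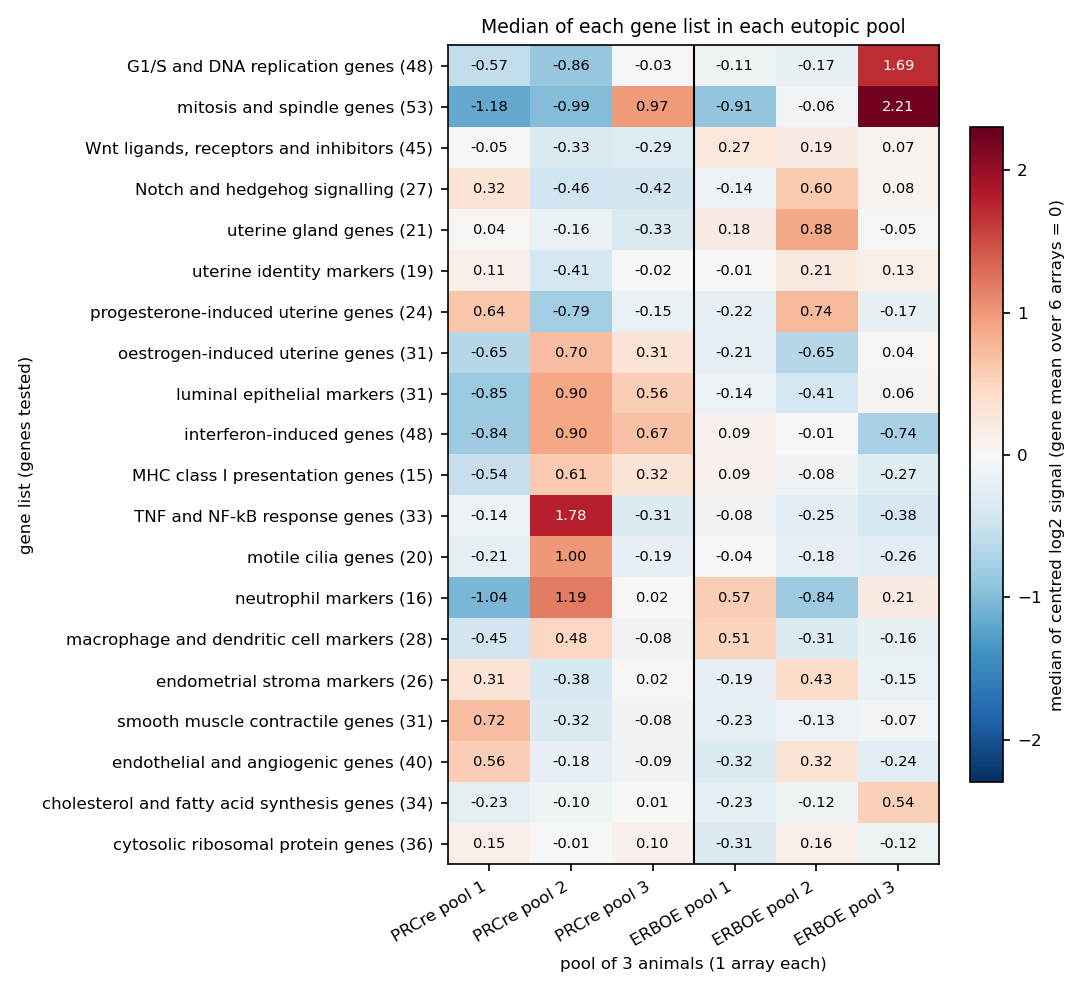
Median, in each of the 6 eutopic pools, of the log2 signals of each gene list after every gene was centred on its mean over the 6 arrays; the number of genes tested stands in brackets. ERBOE pool 3 is the highest for the replication and mitosis lists (1.69 and 2.21), PRCre pool 2 for TNF and NF-kB response genes (1.78), and PRCre pool 1 and ERBOE pool 2 are both above 0 for progesterone-induced genes and below 0 for oestrogen-induced and luminal genes.

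Vessel genes differed in both directions. Of 40 endothelial and angiogenic genes 5 were apart and higher (12.5%) and 2 apart and lower, with a list median of -0.24 that was 0.03 without PRCre pool 1. Esm1, which marks endothelial tip cells, read -3.02, -2.15 and -2.95 in the PRCre pools and -0.17, -1.11 and -0.38 in the ERBOE pools, a difference of 2.15 ± 0.72, and was also higher in ERBOE uterus (3.08) and lesions (1.23). The tip cell peptide gene Apln read -3.81, -3.75 and -4.47 in the PRCre pools and -3.1, -2.68 and -2.69 in the ERBOE pools, the placental growth factor gene Pgf read -3.08, -3.52 and -3.45 in the PRCre pools and -2.67, -2.64 and -1.73 in the ERBOE pools, and the VEGF co-receptor gene Nrp1 read 2.78, 2.64 and 2.23 in the PRCre pools and 3.26, 3.5 and 3.49 in the ERBOE pools. The lymphatic growth factor gene Vegfd was lower, at 2.49, 2.7 and 2.31 in the PRCre pools and 0.75, 2.06 and 0.44 in the ERBOE pools, a difference of -1.42 ± 0.45, with ERBOE pool 2 nearest the controls. Vegfd was also lower in ERBOE uterus (-1.84) and read 0.17 in lesions.

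In stroma and matrix, single genes stood apart where lists did not. Thy1, a surface marker of fibroblasts, read 3.61, 2.64 and 3.2 in the PRCre pools and 4.44, 5.5 and 5.19 in the ERBOE pools, a difference of 1.89 ± 0.48 with every ERBOE pool above every PRCre pool, whereas the stroma list had a median of 0.07 with 1 apart each way. The small proteoglycan gene Dcn was lower, at 8.24, 8.31 and 8.01 in PRCre and 7.84, 7.91 and 7.77 in ERBOE. Of the collagens and their enzymes 3 were apart and higher: Col7a1 of anchoring fibrils at 2.18, 1.14 and 2.29 in the PRCre pools and 2.85, 4.06 and 3.3 in the ERBOE pools, Col8a2 (1.17 ± 0.57) and the lysyl hydroxylase gene Plod1 (0.5 ± 0.24). The metalloproteinase inhibitor gene Timp3 read 3.76, 2.95 and 2.25 in the PRCre pools and 4.11, 3.76 and 4.2 in the ERBOE pools, with PRCre pool 1 and ERBOE pool 2 nearly level. The stromelysin gene Mmp3 read 0.39, 0.69 and -0.82 in the PRCre pools and -0.94, -1.95 and -2.5 in the ERBOE pools, lower in all ERBOE pools. The urokinase gene Plau (-0.75 ± 0.52) and another inhibitor gene, Timp4 (-1.21 ± 0.66), were also lower. Smooth muscle genes had a median of -0.31, 24 of 31 below 0, with PRCre pool 1 high at a centred list median of 0.72; without that pool the median was -0.01. The potassium channel subunit gene Kcnmb1 was apart, at -0.77, -0.8 and -1.33 in the PRCre pools and -1.67, -2.25 and -2.24 in the ERBOE pools. The summed signal of the smooth muscle list overlapped, from 10.07 to 10.81 in PRCre and 9.81 to 10.14 in ERBOE, and the part of muscle content in these values was not tested.

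Guidance and receptor genes carried several of the separations named above. Of 48 ephrin, semaphorin and axon guidance genes 7 were apart and higher (14.6%, against 5.02% of all features) and 4 apart and lower (8.33%, against 3.91%), with a median of 0.04. The count includes Epha8, Epha3 and Ntm, named above for their small p, and the lists were chosen with earlier results of these data known. These shares are therefore no separate evidence. Adrb1, counted below, is another gene named above for its small p. Besides Epha8, Epha3, Ntm and Nrp1, the plexin gene Plxnb1 read -0.57, -0.02 and -1.18 in the PRCre pools and 0.33, 1.19 and 0.41 in the ERBOE pools and the repellent gene Sema3a, a ligand of neuropilin 1, was lower at -1.25, -1.33 and -0.5 in the PRCre pools and -1.5, -2.75 and -1.85 in the ERBOE pools. Of 23 adrenergic, muscarinic and purinergic receptor genes 3 were apart, all adrenergic and all higher: Adrb1, the alpha-2C gene Adra2c at -3.9, -2.47 and -2.62 in the PRCre pools and -1.22, -2.44 and -0.02 in the ERBOE pools and the alpha-1B gene Adra1b (0.92 ± 0.51). Adra2c was also higher in ERBOE uterus, by 2.97, and by 0.58 in lesions.

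Growth factor genes gave scattered separations. Of 42 BMP, activin and TGF-beta genes 4 were apart each way, 9.52% in each direction against 5.02% higher and 3.91% lower over all features. The BMP-family ligand gene Gdf10 read 1.98, -0.44 and 1.32 in the PRCre pools and 3.1, 2.27 and 3.05 in the ERBOE pools, with PRCre pool 2 far below the rest, and Bmp7 read 1.43, 1.34 and 1.95 in the PRCre pools and 2.34, 3.18 and 2.97 in the ERBOE pools, while the BMP antagonist gene Chrdl1 was lower at -1.53, -1.48 and -1.73 in the PRCre pools and -2.31, -2.34 and -2.38 in the ERBOE pools. The activin subunit gene Inhba was high in ERBOE pools 1 and 3, at 1.12 and 0.94, beside -1.58 to -1.28 in the other 4 pools, and differed by 3.31 in uterus and 2.06 in lesions. Fgf18 read -1.82, -1.3 and -1.13 in the PRCre pools and -0.26, -0.05 and 0.28 in the ERBOE pools, a difference of 1.41 ± 0.44, and was the only 1 of 16 FGF genes apart. The MAP kinase phosphatase gene Dusp6, a feedback target of that pathway, was lower at 2.51, 2.8 and 2.37 in the PRCre pools and 1.96, 1.75 and 2.02 in the ERBOE pools.

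Genes of lipid synthesis read higher in ERBOE by a median that rested on ERBOE pool 3. Of 34 cholesterol and fatty acid synthesis genes 25 were above 0 (median 0.23) and 4 were apart and higher (11.8%): the sterol reductase gene Dhcr7 at -3.2, -3.38 and -3.08 in the PRCre pools and -2.51, -1.9 and -1.53 in the ERBOE pools, Fasn, the fatty acid synthase gene, at 3.93, 4.33 and 4.44 in the PRCre pools and 4.48, 5.04 and 4.9 in the ERBOE pools, Acaca (0.77 ± 0.45) and Scd2 (0.63 ± 0.4). Me1 was the 1 gene apart and lower, and without ERBOE pool 3 the median was -0.07. Of 30 genes of lipid uptake and oxidation (median -0.08) 1 was apart each way, Slc27a3 higher and the mitochondrial import gene Cpt1a lower, at 2.68, 2.3 and 2.37 in the PRCre pools and 1.7, 1.47 and 1.55 in the ERBOE pools. Of 27 adipocyte markers 3 were apart and lower and 2, Fasn and Acaca, apart and higher, with a median of -0.33 that was 0.52 without ERBOE pool 3 and 0.42 without PRCre pool 1. The lipid droplet gene Cidea of that list read -1.91, 0.9 and -1.76 in the PRCre pools and -3.68, -4.94 and -2.38 in the ERBOE pools. Within slides 2 and 3 the median of the synthesis genes was -0.2 and 0.59, and in uterus and lesions the list medians were 1.06 and 0.53. Of 31 unfolded protein and heat shock genes 3 were apart and lower and 2 apart and higher (median 0.02). The 2 inducible Hsp70 genes were lower, Hspa1a at 1.7, 1.54 and 1.52 in the PRCre pools and 0.49, 1.13 and 0.59 in the ERBOE pools and Hspa1b at 1.67, 2.5 and 2.69 in the PRCre pools and 0.87, 1.19 and 1.24 in the ERBOE pools, while Hsp90aa1 (0.8 ± 0.34) and its partner Fkbp4, the FKBP52 co-chaperone of the progesterone receptor, were higher. Fkbp4 read 1.56, 1.24 and 1.51 in the PRCre pools and 2.11, 2.17 and 2.83 in the ERBOE pools. Hspa1a and Hspa1b are nearly identical, and their probes may read each other's RNA. Adm, the adrenomedullin gene of the hypoxia list, was lower at 0.95, 1.52 and 0.2 in the PRCre pools and -0.14, -0.28 and -0.07 in the ERBOE pools.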

How the data were processed

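Per the file headers, the deposited values are spot intensities of 1-colour Agilent arrays with 56605 probes, read with Feature Extraction 11.0.1.1, and gProcessedSignal is background-corrected by that software. The log2 signal of each array was computed from these and its 75th percentile subtracted. Control and outlier spots were left out. RefSeq named 32994 probes (22911 symbols), and the probe with the highest signal stood for a gene. Features well above background on at least 3 of 18 arrays (33178) were fitted in limma 3.58.1 (R 4.3.3) with 6 group means, eBayes and Benjamini-Hochberg adjustment over all features, with an adjusted p under 0.05 as the threshold. The first form counted background flags of outlier spots, and the form used was chosen after its result was seen.

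The gene lists and members were chosen with earlier results of these data known. The rule named Esr2, Esr1 and Pgr, the 12 gene symbols of smallest p each way with groups apart and the higher group above background on 3 arrays, up to 4 members of smallest p of each list, and 6 symbols for each difference between tissues. Other genes were named after their values were seen, because their groups were apart or their pools far from each other. The 3 pools per group limit the precision. Alternatives changed the background correction (normexp, offset 50, on median signals, since the planned mean-signal column was not in the files used), scaling, filter, probe rule, slide, variance model, replicates and the value table. The authors' deposited value table holds log2 values centred on each probe. Their scaling is unstated. Recovery was tested on simulated data. Some genes are not reported here.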

Additional observations from a re-analysis of the deposited data

How the results depend on the processing

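The count of features past the threshold stayed at 0 for all 3 comparisons under every setting run except 1. Leaving out single pools gave 0 to 1 features for ERBOE against PRCre in eutopic endometrium, the 1 being Myf6 without PRCre pool 1, and 0 for both differences between tissues. With the replicate block the count was 0, but same-numbered pools correlated at -0.263, -0.191 and 0.114, so the numbers do not pair the pools. Smallest adjusted p in eutopic endometrium were 0.0726 with normexp and 0.0823 with array weights. Features with groups apart made up 4.58% higher and 3.25% lower when the higher group had to be well above background on its 3 arrays, an alternative chosen after seeing the data. Of 5203 values of single genes, 5187 kept their sign and side of the threshold. Timd4 was -0.063 with normexp. Leaving out single pools turned the sign of 11 other genes, over these ranges: Esr2 -0.14 to 0.156, Esr1 -0.164 to 0.26, Ptgs2 -3.937 to 0.069, Fcer2a -1.438 to 0.032, S100a9 -0.031 to 3.386, Krt6b -2.336 to 0.094, Hba-a1 -0.457 to 1.425, Alas2 -0.504 to 1.165, Hbb-bt -0.617 to 1.288, Tmod1 -0.066 to 0.649 and H2ac20 -0.084 to 1.048. The cause was not tested. Of 1301 list medians under alternatives 40 moved by more than the spread between pools, values within slides aside. Dim genes are limited by their signal over background.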

Other observations

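Some gene groups outside the hormone, immune and matrix lists also held separations. Of 20 circadian clock genes 2 were apart and higher and 2 apart and lower, 10% each way against 5.02% and 3.91% of all features. The clock-controlled genes Usp2, at 0.89, -0.52 and -0.08 in the PRCre pools and 1.14, 1.78 and 1.11 in the ERBOE pools, and Tef, at 3.62, 3.79 and 4.04 in the PRCre pools and 4.25, 4.28 and 4.37 in the ERBOE pools, were higher. Npas2, at -4.3, -3.79 and -1.66 in the PRCre pools and -4.97, -4.4 and -5.18 in the ERBOE pools, was among the lower ones, with 2 pools of each genotype well above background. Collection times are not given in the sources used here. Of 22 prostaglandin genes 13 were above 0 (median 0.075) and 1 was apart and lower (4.55%, against 3.91% of all features). It was Hpgd, the prostaglandin dehydrogenase gene, at 1.24, 1.38 and 1.07 in the PRCre pools and 0.6, 0.1 and 0.39 in the ERBOE pools. Of 17 genes of local steroid synthesis and inactivation (median -0.136) 2 were apart and lower (11.8%, against 3.91% of all features). These were the hydroxysteroid dehydrogenase genes Hsd17b11 (-0.39 ± 0.27) and Akr1c14. Akr1c14 read -0.17, 1.02 and 1.08 in the PRCre pools and -0.5, -1.39 and -0.48 in the ERBOE pools. Akr1c14 was also lower in ERBOE uterus (-1.71) and lesions (-1.02).

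Cytosolic ribosomal protein genes were below 0 in 35 of 36 cases, but by a median of only -0.18, and ERBOE pools 1 and 2 lay at opposite ends, at -0.31 and 0.16 (centred list medians). Replication-dependent histone genes had a median of 0.11 with ERBOE pool 3 at 0.79. Mitochondrial respiratory chain genes had a median of 0.05. Haemoglobin genes varied by pool: Hba-a1 read 7.04, 3.68 and 7.42 in the PRCre pools and 6.49, 8.46 and 5.38 in the ERBOE pools, lowest in PRCre pool 2 and highest in ERBOE pool 2.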
